A study of Mus musculus with 4 samples.

Results

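Hair differentiation factors are transcription factors, activators or repressors, known for roles in forming the hair shaft and its inner root sheath as matrix cells leave the hair bulb. They were taken as 9 genes: Foxn1, Hoxc13, Msx1, Msx2, Dlx3, Lef1, Gata3, Cux1 and Ovol1. All probe sets whose only gene symbol on the array platform was that of a member were used, which gave 23 of the 45101 probe sets. Cux1 has 9 of them, Foxn1, Msx1, Msx2, Dlx3, Lef1 and Ovol1 have 2 each, and Hoxc13 and Gata3 have 1 each.

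The back skin of K5-IKKbeta transgenic and wild type mice was profiled with 4 Affymetrix arrays, 2 for each genotype. The transgenic animals carry the IKKbeta gene under regulatory elements of keratin K5, so that the kinase is made in basal keratinocytes of the epidermis and the follicle. IKKbeta, encoded by Ikbkb, activates NF-kB. All mice were males of the C57BL6 X DBA2 cross aged 32 days. Each array held pooled RNA of 3 mice of its genotype, so errors rest on pools and not on animals. Standard errors (SE) are those of limma, which draws the spread between pools of each probe set toward that of all probe sets. The number of founder lines is not given in the labels.

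A growing follicle makes its hair from dividing matrix cells at its base. Wnt signals act there through Lef1, BMP signals act through Msx2 and other homeobox factors, and these feed into Foxn1 and Hoxc13, which act on the keratins and keratin-associated proteins of the shaft. Gata3 and Cux1 are known for the inner root sheath, the sleeve that moulds the shaft. Much of this knowledge comes from mouse mutants, such as the hairless nude mouse, which lacks working Foxn1. Follicles also cycle between growth and rest, and the shaft factors are known for their expression in growing follicles.

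Differences are K5-IKKbeta minus wild type on the log2 scale of the deposited expression values, and a difference was called where its adjusted p (limma, Benjamini-Hochberg over all 45101 probe sets) was under 0.05. Of the 23 member probe sets, 16 were lower in K5-IKKbeta skin, 7 did not pass the threshold and 0 were higher by limma; at an unadjusted p under 0.05 the counts were 21 lower and 0 higher. With wild type 1 or wild type 2 left out, 8 of the 23 were called lower, and Lef1, Cux1 and Msx1 had no called probe set. Over all probe sets, 5.88% were called lower and 10.4% higher, 16.3% in either direction. All 23 member differences were negative, with a median of -0.74, against 0.00 over all probe sets. Both K5-IKKbeta arrays lay below both wild type arrays in 21 member probe sets, as they did in 25.8% of all probe sets. Counted by gene, on the probe set with the highest mean, 8 of the 9 members were lower, the exception being Gata3; over all 18194 genes counted in the same way 6.64% were called lower, and in 24.6% both K5-IKKbeta arrays lay below both wild type arrays. In tissue RNA, fewer cells of a type and less RNA per cell cannot be told apart.

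**Figure D1:**
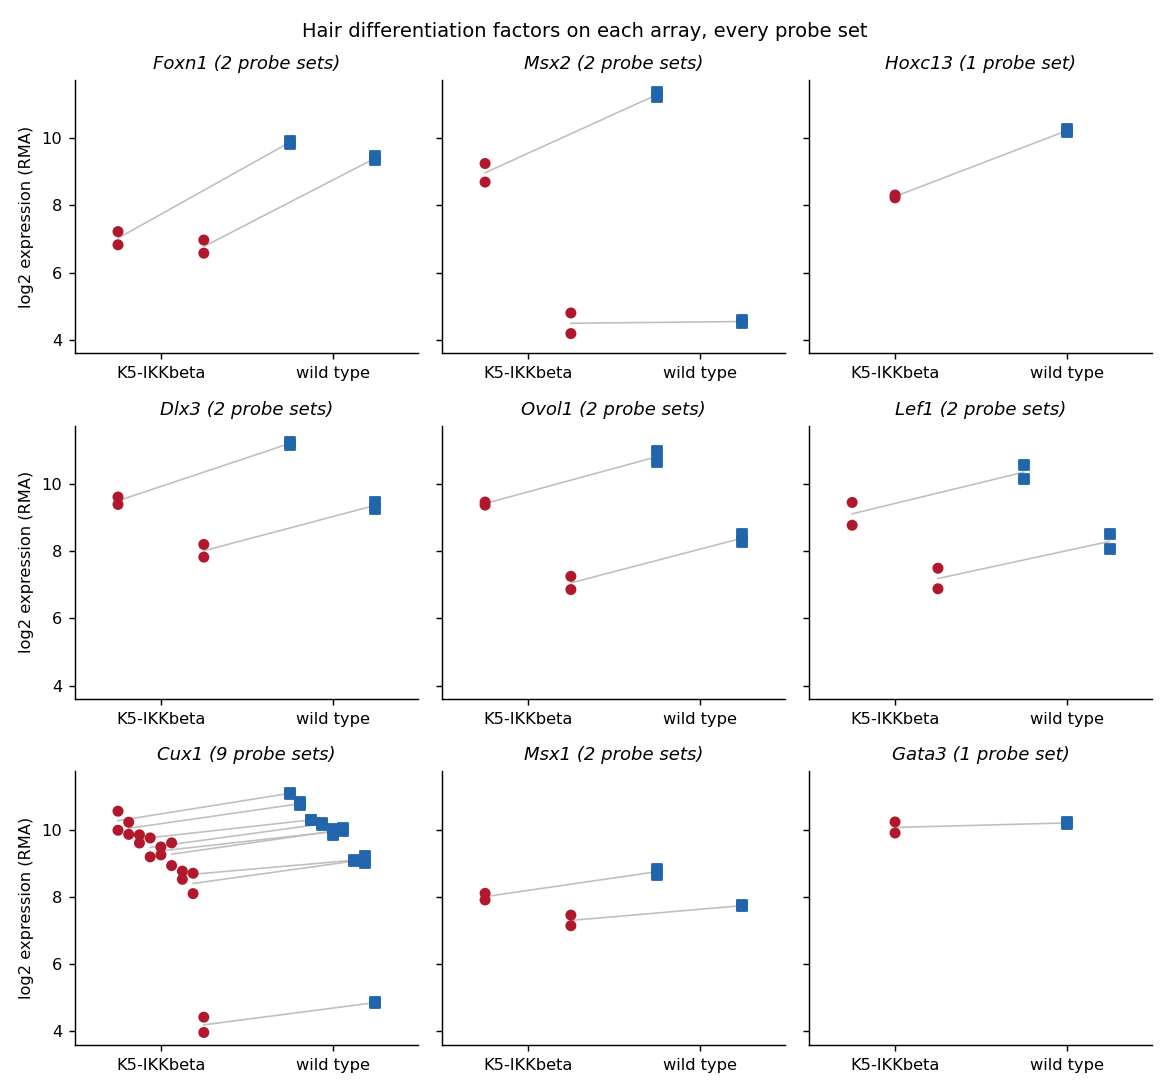
Log2 expression (y axis) of every member probe set on each array, with K5-IKKbeta arrays as red circles and wild type arrays as blue squares, 2 arrays each; grey lines join the group means of a probe set. Genes run by the size of their difference; Foxn1 shows the steepest lines, and the arrays of Gata3 overlap.

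The arrays themselves were alike in scale, with medians of 6.95 to 6.96 in K5-IKKbeta and 6.91 to 6.92 in wild type arrays. Pearson's correlation, taken over probe sets that are no independent replicates of each other, was 0.994 between the K5-IKKbeta arrays, 0.996 between the wild type arrays and 0.965 to 0.969 between genotypes. Ikbkb itself was higher in K5-IKKbeta skin on 3 of its 5 probe sets; the most changed, 1454184_a_at, measured 8.77 and 8.74 there and 6.50 and 6.54 in wild type skin. Whether its probe sets lie within the transgene was not analysed here. The labelled tissue showed its markers: the 8 markers of the epidermis averaged 12.63 to 12.87 in K5-IKKbeta and 12.49 to 12.50 in wild type arrays.

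Foxn1, the forkhead factor of the nude mouse, fell most. Probe set 1456815_at measured 6.83 and 7.22 in K5-IKKbeta pools 1 and 2, against 9.91 and 9.84 in wild type pools 1 and 2. The difference was -2.85 ± 0.15 (SE, n = 2 arrays each), a 7.22-fold fall (limma adjusted p = 0.00014). Its other probe set, 1450508_at, measured 6.58 and 6.97 in K5-IKKbeta skin and 9.35 and 9.46 in wild type skin, a 6.22-fold fall (adjusted p = 0.0002). Both K5-IKKbeta arrays lay far below both wild type arrays on either probe set, and pool 1 minus pool 2 was -0.39 in K5-IKKbeta and 0.07 in wild type skin for 1456815_at. Its promoter is shown because this gene changed most. It is the RefSeq window of GRCm38.p6 from 250 bases before to 50 bases after the start, on the minus strand of chr11:78386559-78386858, with capitals marking the only match to the motifs searched here, a CCAAT box on the reverse strand at base 227 of the window.
Foxn1: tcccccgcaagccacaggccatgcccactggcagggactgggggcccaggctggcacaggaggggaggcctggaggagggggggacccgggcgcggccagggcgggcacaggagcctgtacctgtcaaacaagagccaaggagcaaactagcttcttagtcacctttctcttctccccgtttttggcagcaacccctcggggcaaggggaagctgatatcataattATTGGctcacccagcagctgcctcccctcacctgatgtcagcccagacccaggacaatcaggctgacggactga

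Hoxc13, the homeobox factor at the end of the HoxC cluster whose loss in mice leaves them with brittle, poorly formed hair, had a single probe set, 1425874_at. It measured 8.22 and 8.31 in K5-IKKbeta skin, against 10.18 and 10.26 in wild type skin. This 3.88-fold fall (difference -1.96 ± 0.11, SE, n = 2 each, limma adjusted p = 0.00016) came with close pools, pool 1 minus pool 2 being -0.08 in both genotypes, and the groups did not overlap.

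The Msx genes are homeobox factors downstream of BMP signals, and Msx2 is needed in mice for a normal shaft and for Foxn1 expression in the follicle. Msx2 probe set 1449559_at measured 8.69 and 9.25 in K5-IKKbeta skin and 11.21 and 11.37 in wild type skin, a 5.00-fold fall (difference -2.32 ± 0.19, SE, n = 2 each, limma adjusted p = 0.00071). Its second probe set, 1438351_at, lay below the 25th percentile of every array, at 4.80 and 4.18 in K5-IKKbeta and 4.60 and 4.48 in wild type skin, with overlapping groups (-0.05, adjusted p = 0.91). Msx1 moved less. Probe set 1448601_s_at measured 7.91 and 8.11 in K5-IKKbeta skin against 8.66 and 8.84 in wild type skin, a 1.67-fold fall (difference -0.74 ± 0.13, SE, adjusted p = 0.011). The Msx1 groups did not overlap, but the call needed both wild type arrays: adjusted p was 0.059 with the first left out and 0.11 with the second left out. Msx1 probe set 1417127_at, of the same source transcript, stood at 7.46 and 7.14 in K5-IKKbeta and 7.76 and 7.72 in wild type skin (-0.44, adjusted p = 0.080) and did not overlap; it passed without K5-IKKbeta 1 (-0.60, adjusted p = 0.028) and stood at -0.28 without K5-IKKbeta 2 (adjusted p = 0.20). The Msx2 promoter is shown beside that of Foxn1 as the second largest difference; it lies on the minus strand of chr13:53472731-53473030 (GRCm38.p6), and capitals mark a CCAAT box at base 127.
Msx2: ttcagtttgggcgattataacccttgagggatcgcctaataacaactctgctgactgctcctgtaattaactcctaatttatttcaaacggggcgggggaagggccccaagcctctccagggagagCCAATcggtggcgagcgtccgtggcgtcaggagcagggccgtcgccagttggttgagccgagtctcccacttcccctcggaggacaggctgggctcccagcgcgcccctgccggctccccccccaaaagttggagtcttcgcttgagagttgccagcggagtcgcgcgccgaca

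Dlx3, a homeobox factor whose loss from mouse epithelium abolishes hair and whose human mutations alter hair and teeth, fell on both probe sets. The brighter, 1450475_at, measured 9.39 and 9.61 in K5-IKKbeta skin, against 11.16 and 11.25 in wild type skin, a 3.26-fold fall (difference -1.70 ± 0.12, SE, n = 2 each, limma adjusted p = 0.00044). Probe set 1422037_at fell 2.56-fold (adjusted p = 0.0025). Lef1, the partner of beta-catenin that carries Wnt signals into the matrix and hair cortex, measured 8.77 and 9.45 in K5-IKKbeta skin and 10.15 and 10.55 in wild type skin on probe set 1454734_at. The groups did not overlap, but pool 1 minus pool 2 was -0.68 in K5-IKKbeta and -0.40 in wild type skin, the widest gaps among the members' brightest probe sets. The difference of -1.24 ± 0.24 (SE, n = 2 each), a 2.36-fold fall, passed the threshold (adjusted p = 0.017), and it missed it with either wild type array left out (adjusted p of 0.061 and 0.14). Probe set 1421299_a_at fell 2.15-fold (adjusted p = 0.024) and lost its call without wild type 1 (0.061), wild type 2 (0.17) or K5-IKKbeta 1 (0.052).

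Cux1, a CCAAT-binding homeobox repressor whose mouse mutants have a disrupted inner root sheath, fell by smaller amounts on a broad set of probe sets. All 9 differences were negative, from -0.82 to -0.45, and in all 9 both K5-IKKbeta arrays lay below both wild type arrays; 5 passed the threshold. The brightest, 1441956_s_at, measured 9.99 and 10.55 in K5-IKKbeta skin against 11.09 and 11.08 in wild type skin, a 1.76-fold fall (limma adjusted p = 0.032). The smallest adjusted p was that of 1451435_at, at 9.86 and 10.22 in K5-IKKbeta and 10.73 and 10.82 in wild type skin (1.66-fold, adjusted p = 0.019). The 4 short of the threshold had adjusted p-values of 0.054 to 0.071. K5-IKKbeta pool 1 was below pool 2 on all 9, with differences of -0.68 to -0.23. No probe set of this gene kept its call without wild type 1 or without wild type 2, where calls fell over all probe sets too. A lone wild type array gives no spread of its own. The difference of 1441956_s_at was then -0.81 and -0.82, against -0.82 with all arrays. The same probe set had a difference of -0.53 without K5-IKKbeta 1 and -1.10 without K5-IKKbeta 2. Of those called, 1425612_at lay below the 25th percentile of all 4 arrays, so no fold is given for it.

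Gata3, a zinc finger factor required in mice for the inner root sheath and also expressed by T cells, did not pass the threshold. It measured 9.90 and 10.23 in K5-IKKbeta skin and 10.17 and 10.24 in wild type skin, so the groups overlapped (difference -0.13, 95% confidence interval -0.47 to 0.20, limma adjusted p = 0.60). The interval leaves room for a fall of up to 0.47 and does not reach the differences of the other members' brightest probe sets. It does overlap the intervals of Msx1 (-1.05 to -0.43) and Cux1 (-1.27 to -0.36), so Gata3 is not separated from these. Without K5-IKKbeta 1 the sign turned (0.03, adjusted p = 0.91). Of 11 measured T cell markers, 3 were higher in K5-IKKbeta skin and 0 lower by limma (5 higher and 0 lower at an unadjusted p under 0.05). Over all genes, 14.3% were called higher. The 3 were Cd3g at 1.17, Cd3d at 0.64 and Thy1 at 1.48. Thy1 was the brightest of the list, at 10.94 and 11.46 in K5-IKKbeta and 9.71 and 9.73 in wild type skin, and which skin cells gave its signal was not tested. Among the 8 that did not pass were Cd3e at 0.40, Cd8a at 0.20, Cd6 at -0.04 and Cd4 at -0.13. Cd3d lost its call without either wild type array and without K5-IKKbeta 1. The marker level averaged 6.82 to 7.0 in K5-IKKbeta and 6.44 to 6.53 in wild type arrays, and 2 of the 11 lay below the 25th percentile on all arrays. Lef1 is also a gene of T cells. The part of these cells in the Gata3 and Lef1 values was not tested.

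Ovol1, a zinc finger factor of differentiating keratinocytes whose loss in mice gives kinked hair shafts, measured 9.46 and 9.37 in K5-IKKbeta skin, against 10.65 and 10.97 in wild type skin, on probe set 1419051_at. It fell 2.63-fold (difference -1.39 ± 0.14, SE, n = 2 each, limma adjusted p = 0.0015). Probe set 1419052_at measured 7.25 and 6.86 in K5-IKKbeta and 8.27 and 8.51 in wild type skin, a 2.52-fold fall (adjusted p = 0.0031).

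**Figure D2:**
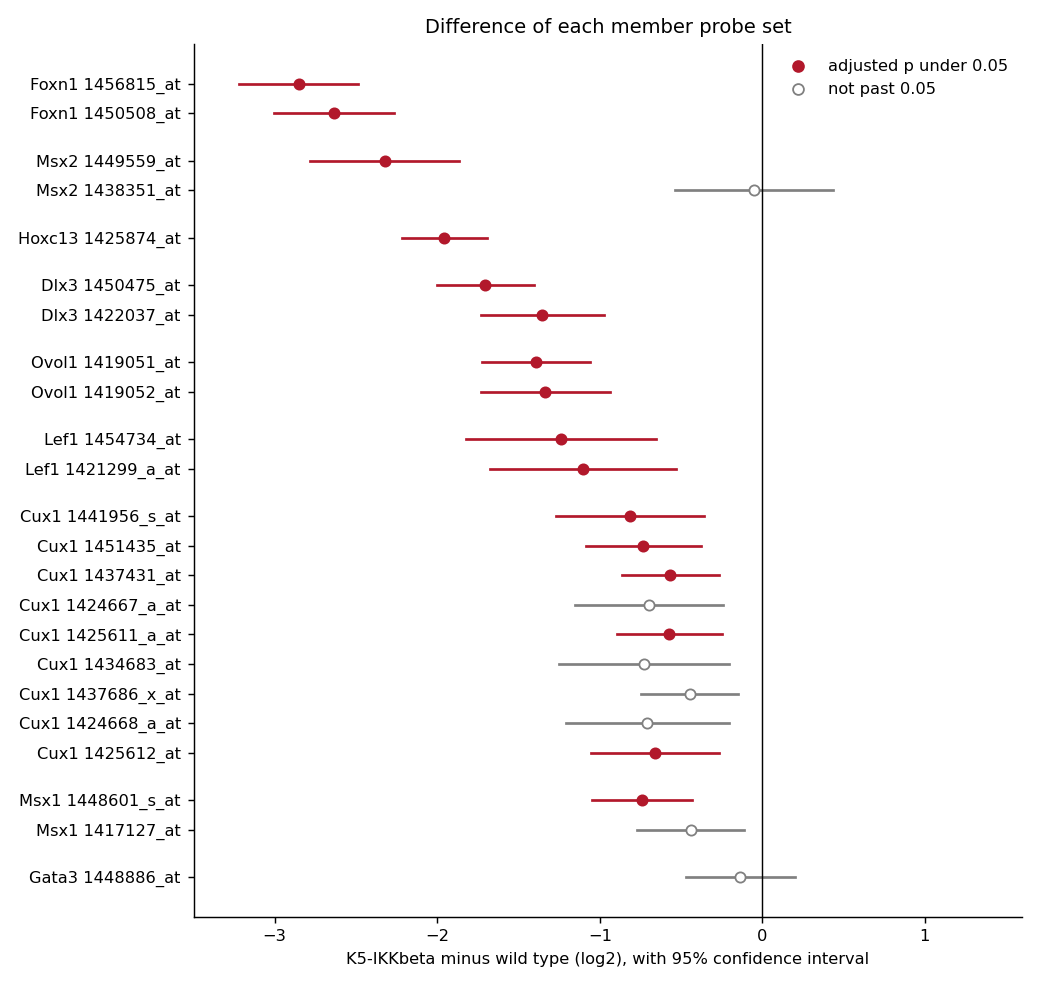
K5-IKKbeta minus wild type (x axis, log2) for each of the 23 member probe sets, with 95% confidence intervals from limma; filled red points passed an adjusted p of 0.05 and open points did not. The differences run from -2.85 for Foxn1 to -0.05 for the dim Msx2 probe set.

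Ordered by the difference of the brightest probe set, the falls ran Foxn1, Msx2, Hoxc13, Dlx3, Ovol1, Lef1, Cux1, Msx1 and Gata3. The 95% confidence intervals of every pair of neighbours in that order overlapped, so that neighbours are not separated, while those at its ends are. The interval of Foxn1 was -3.22 to -2.49, that of Msx1 -1.05 to -0.43 and that of Gata3 -0.47 to 0.20. The place of Msx2 rested on its brightest probe set. With the mean of each gene's probe sets, which takes in its dim one, Msx2 stood at -1.19, after Hoxc13 (-1.96), Dlx3 (-1.53) and Ovol1 (-1.36). Genes whose brightest probe set ran most like a member's were found by the Euclidean distance of mean-centred log2 values over the 4 arrays, among 18193 genes. With 4 arrays of 2 genotypes this mostly matches the size of the genotype difference. For Foxn1 the nearest were the inner root sheath keratin Krt27 (distance 0.02), the hair keratin Krt36 (0.09) and the transglutaminase gene Tgm6 (0.10). Krt27 measured 10.99 and 11.36 in K5-IKKbeta skin and 14.06 and 13.97 in wild type skin. Nearest to Hoxc13 were Zfp185 (0.01), Clu (0.11) and Nxpe3 (0.11), and nearest to Dlx3 were Samd5 (0.06), Tm4sf4 (0.07) and the melanosome gene Oca2 (0.09). Msx2 was nearest to Uox (0.14), Sytl2 (0.16) and Dach1 (0.17), and Lef1 to the zinc transporter gene Slc39a10 (0.10), Cpeb2 (0.17) and Ttc7b (0.20). Ovol1 had as neighbours Lypd6 (0.05), Snord89 (0.07) and Tgm1 (0.08), which cross-links the cornified envelope. For Cux1 they were the connexin Gja1 (0.09), Zdhhc21 (0.10) and Ercc6 (0.10), and for Msx1 they were Dmrta2 (0.02), Rbm20 (0.02) and Dera (0.03). Small differences have many near neighbours: 1694 genes lay within 0.5 of Msx1, against 43 for Foxn1.

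Pools of a genotype were not equal for these genes. K5-IKKbeta pool 1 lay below pool 2 in 19 of the 23 member probe sets (82.6%, median -0.36), against 45.7% of all probe sets. Wild type pool 1 lay below pool 2 in 19 of 23 as well, against 52.3% of all probe sets, with a smaller median of -0.09. The exceptions in the K5-IKKbeta pools were both probe sets of Ovol1, by 0.09 and 0.39, and the dimmer ones of Msx1 and Msx2. Cux1 alone gave 9 of the 19 in K5-IKKbeta and 8 of the 19 in wild type skin. Counted by gene, on the brightest probe set, pool 1 was below pool 2 in 8 of 9 members in K5-IKKbeta and 7 of 9 in wild type skin. The shares over all genes were 45.6% and 54.2%. Some other lists differed between the same pools. The mean level of 7 inner root sheath keratins was 10.49 in K5-IKKbeta pool 1 and 11.04 in pool 2. That of 12 hair shaft keratins was 7.39 and 7.73, and that of 11 proliferation genes, not particular to the follicle, 9.82 and 10.19. Other lists had smaller gaps. Mean pool 1 minus pool 2 was -0.06 for keratin-associated proteins, -0.06 for other follicle transcription factors and -0.01 for upstream signals. It was -0.09 for melanocyte markers and -0.02 for dermal papilla markers. Markers of the epidermis ran the other way, at 12.87 and 12.63. The part of these differences in the member values was not tested.

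**Figure D3:**
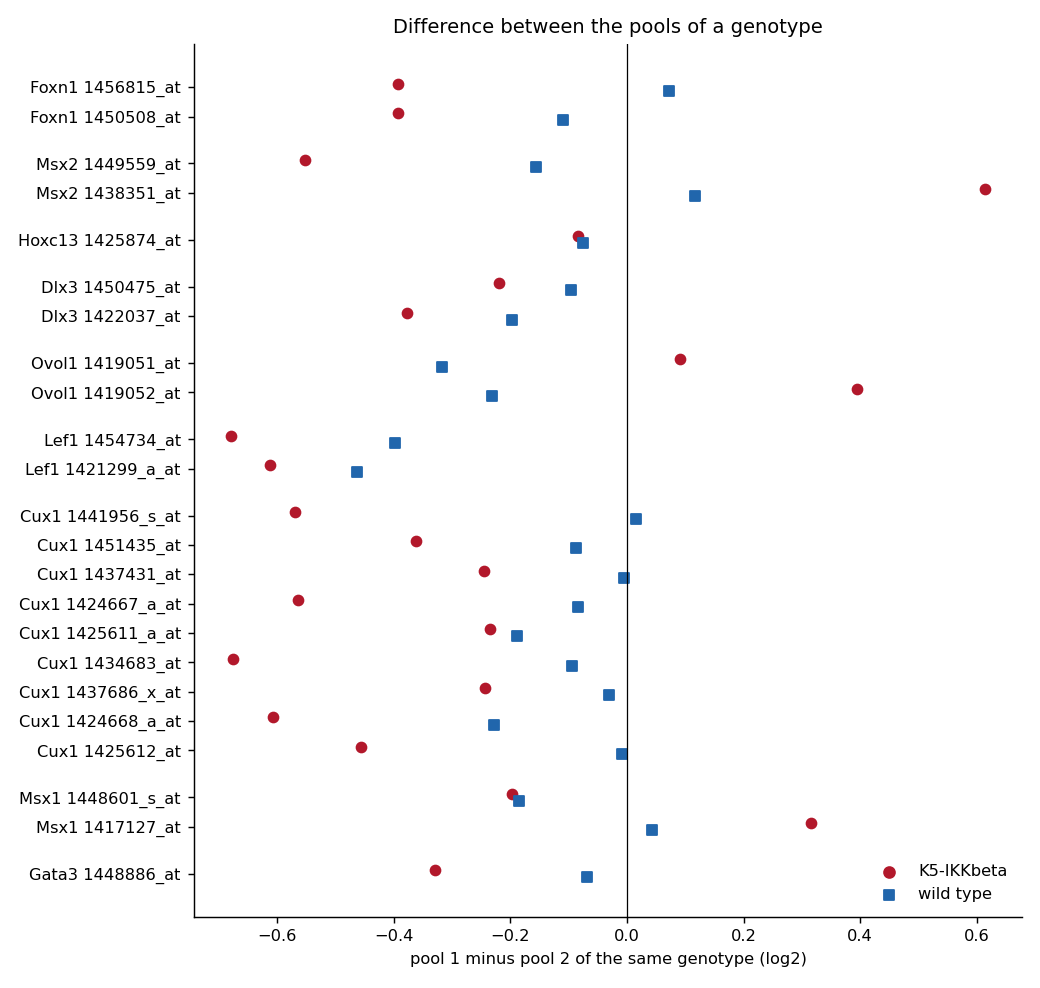
Pool 1 minus pool 2 of the same genotype (x axis, log2) for each member probe set, with K5-IKKbeta as red circles and wild type as blue squares. In K5-IKKbeta skin 19 of 23 circles lie below 0, and those of Ovol1 lie above it.

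Lists of hair shaft and inner root sheath genes had larger median falls than the factors. The medians were not tested against each other, and no gene of the lists is shown here to be a target. Of the hair shaft keratins, 12 of 12 measured were lower, with a median difference of -5.82, against a median of -1.39 over the 9 factors and 0.03 over all genes. Krt86 measured 6.70 and 7.05 in K5-IKKbeta skin and 13.91 and 13.89 in wild type skin, a 130-fold fall, and Krt34, Krt33a and Krt31 fell 114-fold, 89.3-fold and 71.7-fold. Among keratin-associated proteins, which fill the space between keratin filaments, 37 of 38 fell, with a median of -7.31; 13 of the 38 lay below the 25th percentile on both K5-IKKbeta arrays, and the median was -7.30 with these genes at their bound. Krtap13 did not pass (-0.33, adjusted p = 0.17). Near-identical Krtap copies may share probe sets. All 7 measured inner root sheath keratins fell (6 to 7 with an array left out), with a median of -2.38. Krt26 and Krt72 had differences of -5.35 and -4.23. Of 9 enzymes and calcium-binding proteins of shaft and sheath 8 fell, among them Padi1 27.2-fold, S100a3 17.2-fold, and Padi3, which citrullinates hair proteins, 15.6-fold. Msmb, below the 25th percentile throughout, did not pass (-0.22, adjusted p = 0.37). These lists were already known to fall in these data and are no independent support.

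**Figure D4:**
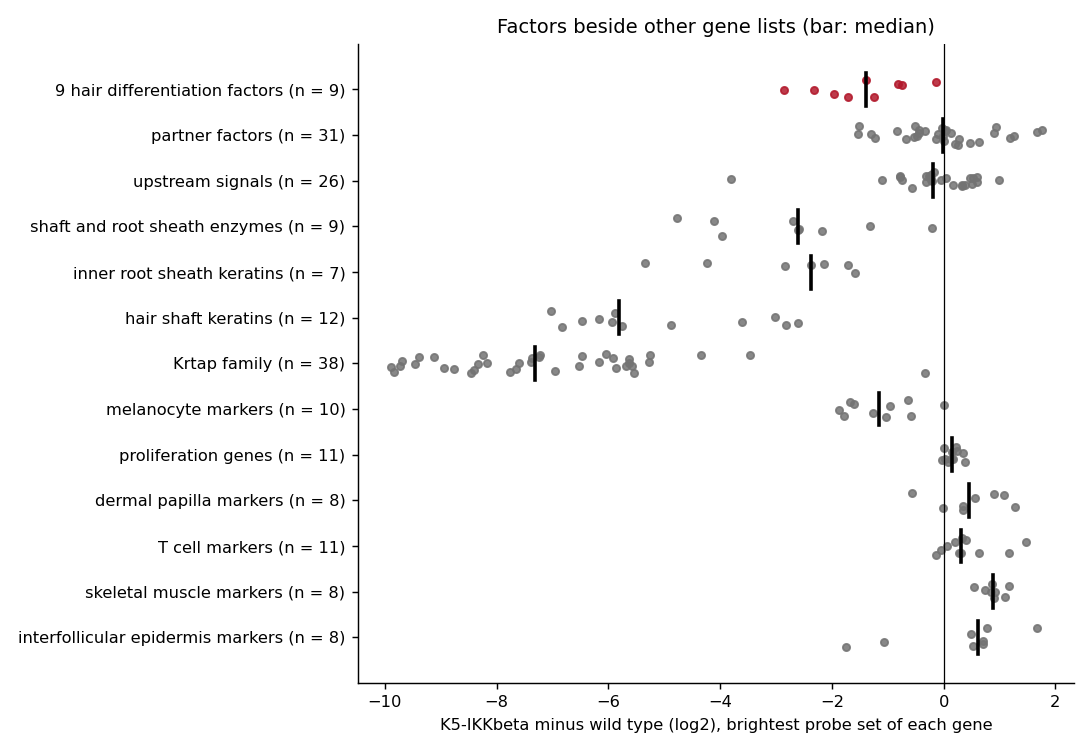
K5-IKKbeta minus wild type (x axis, log2) for the brightest probe set of each gene, by gene list; each point is a gene, black bars are medians, and the 9 factors are in red at the top. The factors lie between the lists centred on 0 and the shaft keratins and Krtap genes, whose medians are -5.82 and -7.31.

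Promoters of these keratins were searched on both strands of the same RefSeq windows for sequences known to be bound by some of the factors' families. These were TAATTG for Msx and Dlx proteins, CTTTGAA or CTTTGAT for Lef1 and its relatives, AGATAA for GATA factors, and CCAAT. The NF-kB motif was searched too, while no motif of Foxn1, Hoxc13 or Ovol1 was searched. Windows were found for 6 of the members (9 windows, 4 of them of Lef1), and Hoxc13, Dlx3 and Ovol1 are named only. TAATTG stood in 4 of 7 windows of inner root sheath keratins and in 11 of 43 of shaft keratins and Krtap genes (25.6%), against 8.0% of all 32851 windows. The Lef1 motif stood in 1 of 7 sheath keratin windows and in 12 of those 43 (27.9%), against 8.65% of all. AGATAA stood in 4 of 7 sheath keratin windows and in 7 of the 43 (16.3%), against 11.2% of all. CCAAT was found in 4 of 7 sheath keratin windows and in 34.9% of the 43, against 37.4% of all windows; its letters overlap TAATTG in the windows of Krt25 and Krt28. The keratin windows are poorer in G and C (medians of 43.7% for the sheath keratins and 42.3% for the 43) than all windows (52.7%) or those of the members (65.0%), and the part of base composition in these shares was not tested. Member windows held 0 matches to TAATTG and to the Lef1 motif. The NF-kB motif stood in 1 of 9 member windows, that of Cux1, and in 4.51% of all windows. It stood in 0 of 7 sheath keratin windows and in 2 of the 43 (4.65%). A match is a run of letters and is not shown to be bound. Keratin genes that lie side by side were counted as separate windows, and the part of sequence shared between them was not tested. In Krt31, Krt32, Krt33b and Krt34, neighbours of 1 keratin cluster, the Lef1 motif began at bases 7, 4, 4 and 11 of the window. The windows of Krt34 (minus strand of chr11:100041505-100041804), with 2 copies of that motif in capitals, and of Krt26 (minus strand of chr11:99337916-99338215), with the reverse of TAATTG in capitals, are printed as examples from the most reduced keratins of shaft and sheath (GRCm38.p6).
Krt34: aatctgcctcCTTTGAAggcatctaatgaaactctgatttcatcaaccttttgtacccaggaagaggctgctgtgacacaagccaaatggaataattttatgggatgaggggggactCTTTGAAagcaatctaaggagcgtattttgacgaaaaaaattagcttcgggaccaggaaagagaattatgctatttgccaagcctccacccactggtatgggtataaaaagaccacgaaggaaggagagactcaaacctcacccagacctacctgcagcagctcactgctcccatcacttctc
Krt26: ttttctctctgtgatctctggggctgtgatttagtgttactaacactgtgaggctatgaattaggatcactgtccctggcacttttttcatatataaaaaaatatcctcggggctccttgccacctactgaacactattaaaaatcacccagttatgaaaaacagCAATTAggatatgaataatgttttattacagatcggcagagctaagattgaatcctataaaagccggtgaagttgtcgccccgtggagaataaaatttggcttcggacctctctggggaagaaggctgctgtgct

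Other transcription factors and cofactors of the follicle did not move as a block. Of 36 listed, 31 had a probe set; 7 were lower, 8 higher and 16 did not pass, with a median difference of -0.01, against 6.64% of all genes lower and 14.3% higher. The largest falls were in Sp6, a zinc finger factor of skin and teeth (9.49 and 9.25 in K5-IKKbeta, 10.76 and 11.03 in wild type skin, 2.88-fold), and in Dlx4, the chromosomal neighbour of Dlx3 (6.36 and 6.06 in K5-IKKbeta, 7.67 and 7.78 in wild type skin, 2.85-fold). The largest rises were in Sox18, a factor of vessels and dermal papilla (9.98 and 10.10 in K5-IKKbeta, 8.18 and 8.38 in wild type skin, 3.38-fold), and in Nfatc1, a factor of bulge stem cells (3.20-fold). These 4 were called with any of the arrays left out. Outside the naming rule and picked after their values were seen, Foxq1, whose loss alters the hair medulla in mice, fell 2.47-fold, Prdm1 fell 2.33-fold, and Bcl11b and the hedgehog effector Gli1 rose 2.28-fold and 1.87-fold. Without K5-IKKbeta 2 the list had 11 lower genes and without wild type 2 it had 4; the calls of Gli3, Barx2 and Bnc2 were lost, with adjusted p-values of 0.10, 0.20 and 0.26.

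**Figure D5:**
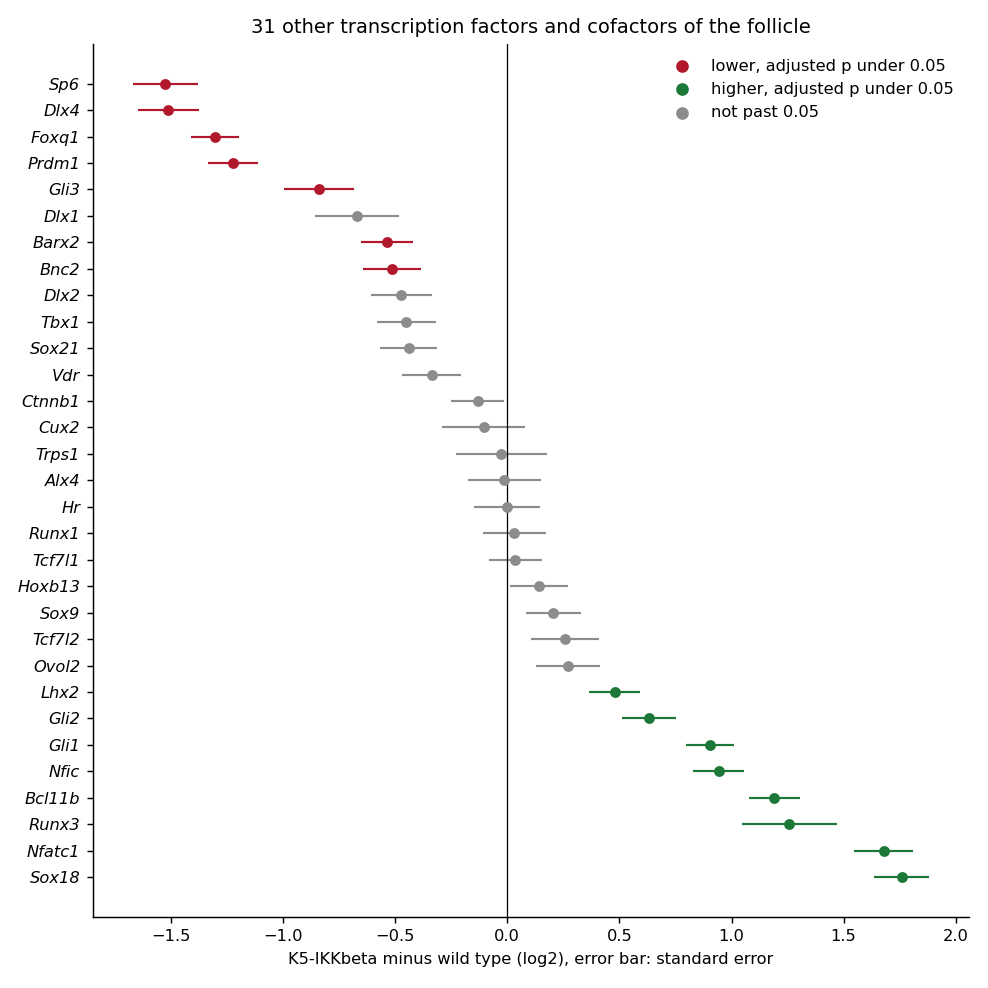
K5-IKKbeta minus wild type (x axis, log2) with standard errors for 31 other follicle transcription factors and cofactors, ordered by difference; red, green and grey mark lower, higher and not past an adjusted p of 0.05. The differences span -1.52 for Sp6 to 1.76 for Sox18.

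Close relatives of the members, looked up after the values were seen and so given without a test of the set, gave these differences. In the HoxC cluster, Hoxc13 stood at -1.96, and Hoxc4 and Hoxc10 were higher, at 0.79 and 0.72 (limma adjusted p of 0.0040 and 0.025). Hoxc4 lost its call without wild type 1 (0.055) or wild type 2 (0.052), and Hoxc10 without wild type 1 (0.080), wild type 2 (0.19) or K5-IKKbeta 2 (0.063). Hoxc6, Hoxc8 and Hoxc9 did not pass, at 0.53, 0.48 and 0.16 (adjusted p of 0.054, 0.14 and 0.54). Hoxc5, at -0.44 (adjusted p = 0.043), lost its call without wild type 1 (0.23), wild type 2 (0.23) or K5-IKKbeta 1 (0.12), and turned to 0.13 when the mean of its probe sets was taken. Among Dlx genes, Dlx3 and Dlx4 stood at -1.70 and -1.51. Their relatives Dlx1, Dlx2 and Dlx5 did not pass, at -0.67, -0.47 and -0.37 (adjusted p of 0.058, 0.063 and 0.21). Dlx6, near background in both groups, stood at 0.04 (adjusted p = 0.93). Msx3 stood at -0.13 beside Msx2 at -2.32, and Ovol2 at 0.27 beside Ovol1 at -1.39.

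Signals that act upstream of the factors showed no common direction. Of 26 genes, 4 were lower, 4 higher and 18 did not pass (median -0.19), against 6.64% of all genes lower and 14.3% higher. Bmp2 and Bmp4, the ligands upstream of Msx genes, had differences of -0.74 (adjusted p = 0.006) and -0.57 (adjusted p = 0.020); Bmp2 lost its call without either wild type array (0.054 and 0.077), and Bmp4 without wild type 1 (0.096), wild type 2 (0.17) and K5-IKKbeta 1 (0.057). The Wnt target Nkd1 fell 2.14-fold, and the Wnt antagonist Dkk1 rose 1.99-fold. Axin2, another Wnt target, stood at 0.33 (adjusted p = 0.10), the hedgehog ligand Shh at 0.32 (adjusted p = 0.17) and beta-catenin (Ctnnb1) at -0.13 (adjusted p = 0.54). Fgf5, which ends hair growth, measured 4.23 and 3.65 in K5-IKKbeta skin, below the 25th percentile of both arrays, and 7.87 and 7.62 in wild type skin. Taken against that floor it was at least 5.39-fold lower. Ptch1, Edar and Wnt10a, the other genes that rose, had differences of 0.48, 0.51 and 0.60. Each lost its call without wild type 1 (differences of 0.43, 0.54 and 0.55) and without wild type 2 (0.53, 0.48 and 0.64). Ptch1 also lost it without K5-IKKbeta 1 (0.51) and without K5-IKKbeta 2 (0.45). Wnt10a lost it without K5-IKKbeta 1 (0.44) and Edar without K5-IKKbeta 2 (0.39).

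Markers of other cells in the skin were counted in the same way, beside 6.64% of all genes called lower and 14.3% called higher. Of 11 proliferation genes limma called 0 higher and 0 lower (1 higher at an unadjusted p under 0.05), with a median of 0.15 and a mean level of 9.82 to 10.19 in K5-IKKbeta and 9.76 to 9.94 in wild type arrays. Of 10 melanocyte markers 9 were lower (6 without wild type 1), and their level was 9.21 to 9.30 in K5-IKKbeta and 10.37 to 10.42 in wild type arrays. Sox10, a lineage marker of melanocytes and nerve sheath, stood at 0.0032. Dermal papilla markers were higher in 3 of 8 (Sox2, Prom1 and Wif1; 1 without either wild type array), sebaceous gland markers in 4 of 6 with 1 lower, skeletal muscle markers in 7 of 8 (3 without either wild type array) and adipocyte markers in 3 of 6 (1 without wild type 2). Epidermis markers were higher in 6 of 8 (1 without either wild type array), while Ivl and Flg were lower. The dermal papilla marker Sox2 was near background in wild type skin, at 3.96 and 4.21. K5-IKKbeta array 1, at 5.18, was below its floor of 5.35, and array 2 measured 5.55. Taken against the floor, Sox2 was at least 1.02-fold higher. The dermal papilla call left without either wild type array was that of Sox2. The muscle level was 13.27 to 13.51 in K5-IKKbeta arrays and 12.45 to 12.55 in wild type arrays. The part of these shifts in the member values was not tested.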

How the data were processed

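Expression was measured with Affymetrix arrays with 5 ug of total RNA for each, per the labels' protocols. RMA is the method named in the submitters' processing notes, with no version or log base. The authors' deposited values span 2.65 to 14.7, a range of log2 intensities, and were taken as log2 and not normalized again. Software settings and detection calls were not used here. The 45101 probe sets were named from the platform annotation: 34958 had 1 symbol, 932 several and 9211 none, and 34754 matched the RefSeq gene table of GRCm38.p6 by identifier, with 0 symbols changed.

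K5-IKKbeta (n = 2 arrays) was compared with wild type (n = 2 arrays) by moderated linear models (R 4.3.3 with limma 3.58.1; genotype was the sole term and tests were two-sided), on all probe sets, with Benjamini-Hochberg adjustment over all of them; 2 residual and 4.46 prior degrees of freedom. An exact permutation test of 2 against 2 cannot go below 0.333, so none is given. The number of arrays limits the precision, and nothing in the labels gives a batch. A probe set with both arrays of a group below the 25th percentile of its array was read as near background. The fit was tested on simulated data.

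Named by rule were the 9 members with all probe sets, for each member that passed the 3 genes of most like pattern, and up to 4 genes past the threshold with the largest difference per list. Members, lists and settings were chosen with earlier results of these data known. Hoxc12, Tcf7, Foxe1, Foxi3, Krt85, Krt74, Lck, Ccnb1, Awat1, Dgat2l6, Plin1 and Cfd were listed and not analysed here.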

Additional observations from a re-analysis of the deposited data

How the results depend on the processing

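Under 15 alternative settings the 23 member probe sets gave 308 values: 236 kept their sign and side of the threshold, 46 were no longer past it, 23 newly passed and 3 changed sign. Those 3 were not called: the dim Msx2 probe set 1438351_at at 0.0063 without wild type 1 and 0.25 without K5-IKKbeta 2 (range with an array left out -0.36 to 0.25), and Gata3 at 0.030 without K5-IKKbeta 1 (range -0.30 to 0.030). Of other named genes, Hoxc5 turned to 0.13 with the mean of its probe sets. Foxn1, Msx2, Hoxc13, Dlx3 and Ovol1, on their brightest probe sets, were lower in 14 of 15 settings and lost their call only with no moderation across probe sets (highest adjusted p = 0.17). With no moderation 0 member probe sets passed, and 8 probe sets in all were lower and 11 higher, on 2 residual degrees of freedom. Against a 1.2-fold change, 9 member probe sets were lower, with 1233 lower and 2379 higher in all. With an array left out, 8 to 20 member probe sets were lower, and 840 to 2698 lower and 1648 to 4416 higher in all; the fewest came without a wild type array, where the remaining wild type array is assumed to vary like the others. With 1 value per gene above the 40th percentile, 8 members were lower by either rule, with 1380 lower and 3056 higher genes on the brightest probe set and 1414 and 2628 on the mean. Another quantile normalization, without or with hair keratins and Krtap genes left out, gave 19 and 20 lower member probe sets, and centring on array medians 18. The labels number the arrays 1 and 2 in both groups without saying that a number is shared by litter or day. The difference of array 1 and array 2 correlated between genotypes at 0.25 over all probe sets, and with 2 pairs this does not establish pairing. With the replicate number as a block, 16 member probe sets were lower, as without it, and 2647 lower and 4492 higher in all; Cux1 1425612_at lost its call (adjusted p = 0.051) and Cux1 1424668_a_at gained one (adjusted p = 0.036).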
